A study of Homo sapiens with 12 samples.

Results

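The genes described here are 10 genes whose products define, or drive, the passage between epithelial and mesenchymal cell states. They were taken by gene symbol from the deposited tables of TPM (an expression level scaled for gene length and library total), in which they are 10 of 56266 genes, and all 10 reached a TPM of 1 in 2 or more libraries and so entered the tests with 21533 others. The libraries came from H1, an established human embryonic stem cell (hESC) line, and from 1 H1 clone in which TALENs had helped to insert a PGK-neomycin cassette at exon 3 of both GATA2 alleles. The 5 groups, of 2 libraries each, were undifferentiated hESCs labelled GATA2-/-, hemogenic endothelium (HE, sorted as CD34+CD31+CD43-) at day 8 of co-culture with OP9 mouse stromal cells from WT H1 and from the line labelled GATA2-/-, and hematopoietic progenitor cells (HPC, sorted as CD34+CD43+) at day 9 from the same lines. The labels also list 2 WT hESC samples, which were not analysed here, so every comparison with hESCs is within cells labelled GATA2-/- (KO below), and the hESC libraries stand in both of them.

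In an epithelium, E-cadherin (CDH1) joins neighbouring cells through catenins, and EPCAM, tight junctions and keratins accompany it. In an epithelial to mesenchymal transition (EMT), zinc finger and helix-loop-helix repressors of the SNAI, ZEB and TWIST families silence CDH1 and other junction genes, while N-cadherin (CDH2), the intermediate filament vimentin (VIM) and the matrix protein fibronectin (FN1) are characteristic of mesenchymal cells. Human ESCs grow as an epithelium-like sheet that expresses CDH1 and EPCAM. Cells on the way to mesoderm pass through an EMT, endothelium then forms a layer of its own whose junctions carry VE-cadherin (CDH5), and the release of blood cells from hemogenic endothelium, the endothelial to hematopoietic transition, is again a loss of adhesion.

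Each library held 16004 to 17335 genes with a TPM of 1 or more. TPM keeps no read number, so the depth of a library is unknown and no counting interval can be given. The sorted cells carried the markers of their stage. The summed TPM of 8 endothelial markers was 66.9 and 85.2 in hESCs, 2746 to 3235 in HE and 548 to 796 in HPC, and that of 8 erythroid markers was 0.85 and 1.22, 23.4 to 118, and 4763 to 14238. The summed TPM of 8 blood markers was at or below 47.5 in hESCs, 39.9 to 174 in HE and 682 to 861 in HPC. Of these 8, 7 rose from HE to HPC in each genotype at a limma adjusted p under 0.05. The exception was PTPRC, which encodes CD45, and its TPM was at or below 3.09 in all 10 libraries. GATA2 itself had a TPM of 107 and 78.0 in WT HE and 111 and 94.1 in KO HE, and of 290.1 and 204 in WT HPC and 112 and 83.8 in KO HPC, against 2.05 and 5.54 in hESCs. Reads of an aberrant transcript of the disrupted locus count toward this value, which therefore does not check the labels. The file headers carry P38 and P58 for the hESC libraries and 1 common numeric tag for replicate 2 of each HE and HPC group, which no replicate 1 has. No source used here says what these marks stand for or whether the 2 libraries of a group came from separate cultures, so the p-values measure the spread between these libraries, which may be technical. In bulk RNA, fewer cells of a type and less RNA per cell cannot be told apart.

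Both epithelial adhesion genes were high in hESCs and close to 0 after differentiation. CDH1 (ENSG00000039068, GRCh37 chromosome 16 from 68771195 to 68869440, plus strand) had a TPM of 171 and 139 in KO hESCs, 0.58 and 0.38 in WT HE, 0.53 and 3.36 in KO HE, 0 and 0.95 in WT HPC, and 0.40 and 1.00 in KO HPC. Both hESC libraries lay far above the other 8, and the HE and HPC libraries overlapped. The log2 fold change of TPM + 1 was -5.91 (standard error 0.54) from KO hESCs to KO HE, with an adjusted p of 8.36e-05 from limma (Benjamini-Hochberg over all tested genes), and -6.53 (standard error 0.54) from KO hESCs to KO HPC, with an adjusted p of 5.08e-05 from limma. EPCAM (ENSG00000119888, chromosome 2 from 47572297 to 47614740, plus strand), a homophilic adhesion molecule of epithelial and pluripotent cells, had a TPM of 147 and 141 in KO hESCs, 4.35 and 3.17 in WT HE, 6.83 and 4.51 in KO HE, 3.82 and 4.34 in WT HPC, and 1.64 and 5.05 in KO HPC. Its level after differentiation was low but above 1 in all 8 libraries, while that of CDH1 exceeded 1 in 1 of them, KO HE replicate 2. EPCAM fell by 4.46 on the log2 scale (standard error 0.40, limma adjusted p = 7.16e-05) to KO HE and by 5.18 (standard error 0.40, limma adjusted p = 3.46e-05) to KO HPC. The pluripotency gene POU5F1, measured beside them, went from 2855 and 3332 in hESCs to 0.56 to 3.02 in the other libraries.

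**Figure D1:**
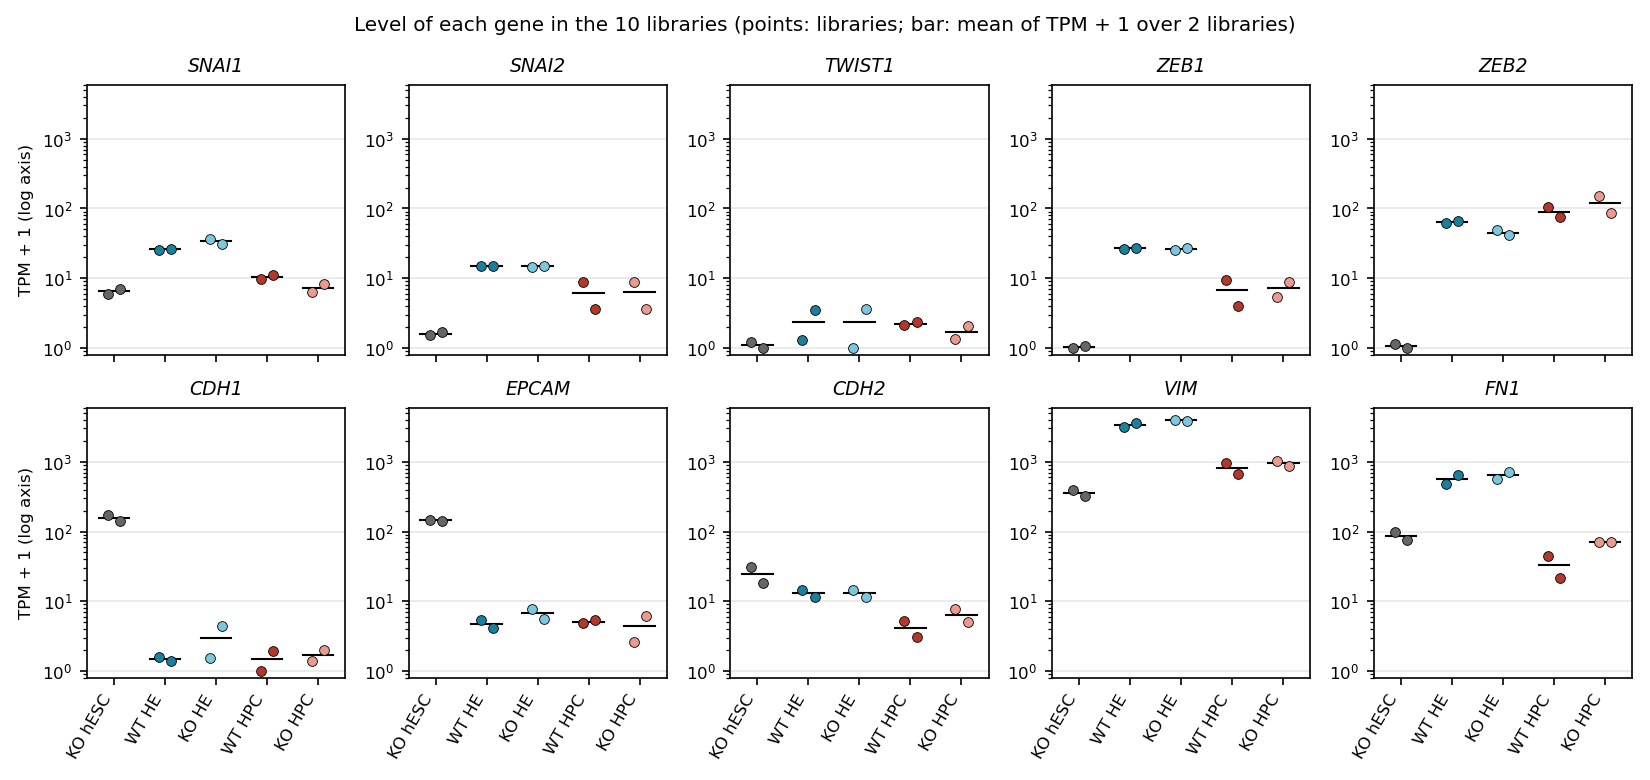
TPM + 1 of each of the 10 genes on a log axis, with 1 point for each library and a bar at the mean of the 2 libraries of a group (KO, labelled GATA2-/-). CDH1 and EPCAM are high in hESCs alone, SNAI1, SNAI2, ZEB1, VIM and FN1 are highest in the 4 HE libraries, ZEB2 is highest in the 4 HPC libraries, and TWIST1 stays at or below 2.66 TPM.

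The 5 transcription factors that repress CDH1 did not move together. SNAI1 (ENSG00000124216, chromosome 20 from 48599517 to 48605423, plus strand), which encodes Snail, had a TPM of 4.94 and 5.98 in KO hESCs, 24.1 and 25.6 in WT HE, 35.3 and 30.4 in KO HE, 8.85 and 10.01 in WT HPC, and 5.28 and 7.30 in KO HPC. All 4 HE libraries lay above all other libraries, and the KO HPC libraries overlapped those of hESCs. SNAI1 rose by 2.39 on the log2 scale from KO hESCs to KO HE (standard error 0.24, limma adjusted p = 0.000143), and the difference between KO HPC and KO hESCs was 0.17 (95% interval -0.39 to 0.72, limma adjusted p = 0.655). SNAI2 (ENSG00000019549, chromosome 8 from 49830157 to 49834299, minus strand), which encodes Slug, had a TPM of 0.52 and 0.67 in KO hESCs, 13.8 and 14.2 in WT HE, 13.6 and 14.2 in KO HE, 7.71 and 2.57 in WT HPC, and 7.97 and 2.68 in KO HPC. The 4 HE values lay between 13.6 and 14.2, while in HPC replicate 2 was below replicate 1, by -1.29 on the log2 scale of TPM + 1 in each genotype. SNAI2 rose by 3.23 (standard error 0.51, limma adjusted p = 0.00164) to KO HE and by 1.85 (standard error 0.51, limma adjusted p = 0.024) to KO HPC. Without KO HPC replicate 1 the latter was 1.21 with a limma adjusted p of 0.143, and leaving out hESC replicate 1 or 2 gave a limma adjusted p of 0.14 or 0.11.

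ZEB1 and ZEB2, paralogous zinc finger and homeodomain repressors, were both at or near 0 in hESCs and then parted. ZEB1 (ENSG00000148516, chromosome 10 from 31607424 to 31818742, plus strand) was listed at 0 and 0.06 in KO hESCs, 25.5 and 26.1 in WT HE, 24.3 and 26.4 in KO HE, 8.37 and 3.06 in WT HPC, and 4.39 and 7.87 in KO HPC. ZEB2 (ENSG00000169554, chromosome 2 from 145121931 to 145278624, minus strand) was listed at 0.14 and 0 in KO hESCs, 60.4 and 64.2 in WT HE, 47.8 and 40.6 in KO HE, 103 and 75.0 in WT HPC, and 150.2 and 85.4 in KO HPC. The HPC libraries were thus the highest of all for ZEB2 and stood between hESC and HE for ZEB1. From KO hESCs to KO HE the log2 fold change of TPM + 1 was 4.68 (standard error 0.42, limma adjusted p = 7.39e-05) for ZEB1 and 5.40 (standard error 0.28, limma adjusted p = 4.88e-06) for ZEB2. To KO HPC it was 2.75 (standard error 0.42, limma adjusted p = 0.00137) for ZEB1 and 6.74 (standard error 0.28, limma adjusted p = 1.81e-06) for ZEB2, the largest change of any of the 10 genes. Because the hESC values are at the floor, these sizes rest on the added 1, and with 0.1 added they were 7.65 and 8.15 in HE and 5.56 and 9.52 in HPC. The antisense genes ZEB1-AS1 (0 to 13.7 TPM) and ZEB2-AS1 (0 to 8.41 TPM) overlap the ZEB loci on the opposite strand, and reads of the pairs cannot be told apart unless counting used strand, which no source used here states.

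TWIST1 (ENSG00000122691, chromosome 7 from 19060614 to 19157259, minus strand), a helix-loop-helix factor of mesoderm and mesenchyme, was scarcely detected. Its TPM was 0.22 and 0 in KO hESCs, 0.30 and 2.46 in WT HE, 0 and 2.66 in KO HE, 1.11 and 1.32 in WT HPC, and 0.34 and 1.08 in KO HPC. In HE of both genotypes replicate 2 was above 2 and replicate 1 at or below 0.30, so the spread between HE replicates was larger than the difference between KO HE and KO hESCs. No comparison passed for TWIST1, and the 95% interval of its log2 fold change from KO hESCs to KO HE was -0.71 to 2.30.

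The genes that mark mesenchymal cells rose to HE, with the exception of CDH2. VIM (ENSG00000026025, chromosome 10 from 17270240 to 17279592, plus strand) had the highest TPM of the 10 genes in each of the 10 libraries, on a scale that is per length. Its TPM was 390 and 319 in KO hESCs, 3172 and 3564 in WT HE, 4025 and 3897 in KO HE, 958 and 667 in WT HPC, and 1029 and 860 in KO HPC. Among all genes of a library it ranked between 18 and 31 in HE and between 360 and 426 in hESCs. VIM rose by 3.49 on the log2 scale to KO HE (standard error 0.20, limma adjusted p = 6.45e-06) and by 1.41 to KO HPC (standard error 0.20, limma adjusted p = 0.000787). FN1 (ENSG00000115414, chromosome 2 from 216225163 to 216300796, minus strand), which encodes the matrix ligand of several integrins, had a TPM of 98.5 and 74.6 in KO hESCs, 486 and 652 in WT HE, 568 and 719 in KO HE, 43.1 and 20.7 in WT HPC, and 69.3 and 69.2 in KO HPC. All 4 HPC libraries lay below both hESC libraries and all 4 HE libraries lay above them. FN1 rose by 2.88 to KO HE (standard error 0.32, limma adjusted p = 0.000216), and its difference between KO HPC and KO hESCs was -0.30 (95% interval -1.02 to 0.41, limma adjusted p = 0.513).

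CDH2 (ENSG00000170558, chromosome 18 from 25512843 to 25757910, minus strand), the cadherin that replaces CDH1 in the textbook cadherin switch, was highest in hESCs. Its TPM was 30.3 and 17.3 in KO hESCs, 13.6 and 10.5 in WT HE, 13.7 and 10.6 in KO HE, 4.15 and 2.02 in WT HPC, and 6.68 and 3.99 in KO HPC. The levels stepped down from hESC to HE to HPC without overlap between the stages. The log2 fold change from KO hESCs to KO HE was -0.87 (95% interval -1.77 to 0.02, limma adjusted p = 0.134), which did not pass. Replicate 2 was below replicate 1 in all 5 groups, and with the replicate number as a block the change passed (limma adjusted p = 0.0327). That block treats same-numbered hESC and HE libraries as related. Over all tested genes, their replicate differences correlated at 0.0038 between KO hESCs and KO HE. CDH2 fell by 1.95 from KO hESCs to KO HPC (standard error 0.40, limma adjusted p = 0.00587), a call that was lost without hESC replicate 1 (limma adjusted p = 0.0675).

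In HE, 6 of the 10 genes rose and 2 fell against KO hESCs, where 13.9% and 16.1% of all tested genes did. In HPC, 4 rose and 3 fell, where 14.2% and 16.4% of all tested genes did. CDH1, EPCAM, SNAI2, ZEB1, ZEB2 and VIM passed in the same direction in both comparisons, which share the hESC libraries. SNAI1 and FN1 passed in HE and not in HPC, and CDH2 in HPC and not in HE.

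**Figure D2:**
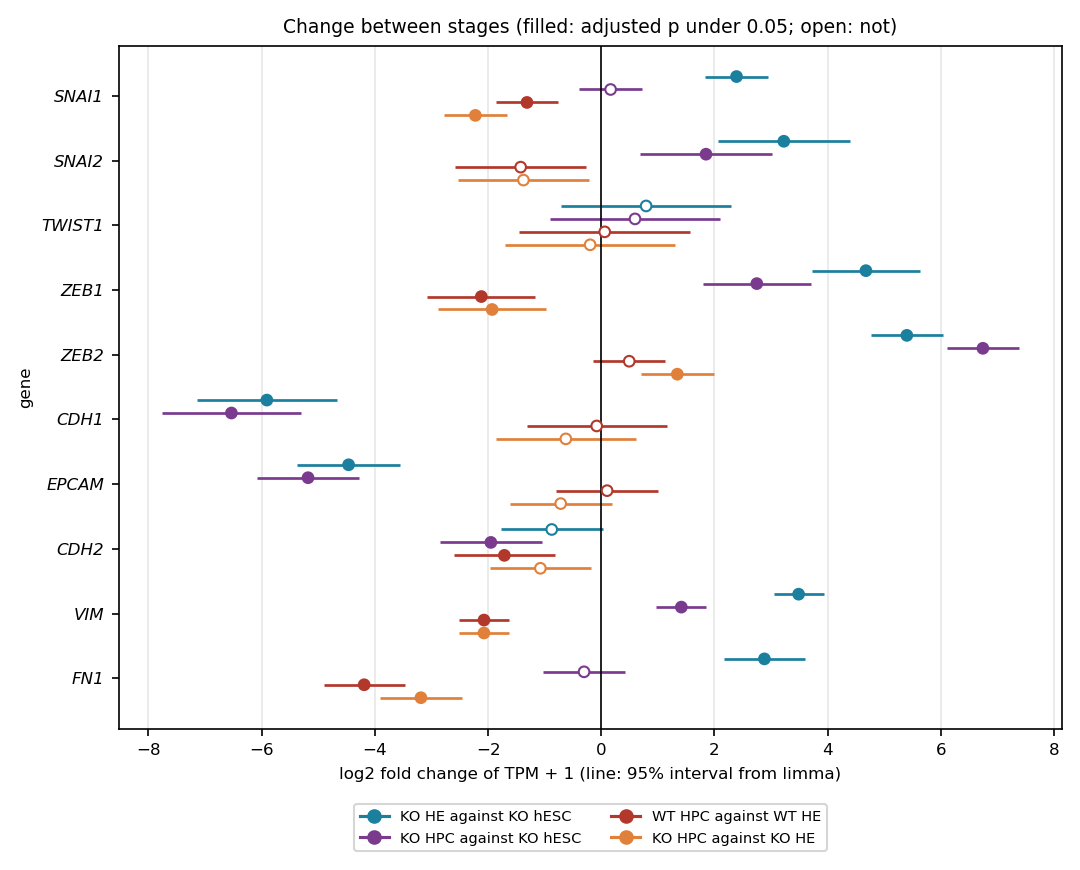
Log2 fold change of TPM + 1 of each gene between stages, with the 95% interval from limma as a line; filled points passed an adjusted p of 0.05 and open points did not. CDH1 and EPCAM lie at -4.46 or below in both comparisons with hESCs and near 0 between HE and HPC, while VIM, FN1 and ZEB1 lie above 0 from hESC to HE and below 0 from HE to HPC.

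The fate of CDH1 was placed beside that of other cadherins from the lists of junction, mesenchymal and endothelial genes. CDH3, the P-cadherin of epithelia, had a TPM of 149 and 136 in KO hESCs and 0 to 7.57 in the other 8 libraries. CDH11, a mesenchymal cadherin, had 2.37 and 2.07 in hESCs, 15.6 to 38.04 in HE and 8.65 to 27.6 in HPC. CDH5 was listed at 0 and 0.81 in hESCs and had 514 to 614 in HE and 53.9 to 137 in HPC. Of the summed TPM of these 5 cadherins, CDH1 and CDH3 each held 42.2% to 48.5% in hESCs, and CDH5 held 89.6% to 95.1% in HE and 79.8% to 85.4% in HPC. CDH2 never held more than 8.60% of the sum, and that share was in hESC replicate 1. CDH5 thus stood highest of the 5 in all 8 HE and HPC libraries, WT and KO, and CDH2 in none.

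Other epithelial genes fell with CDH1 and EPCAM. From KO hESCs to KO HE, 19 of 25 tested genes of tight junctions, desmosomes, keratins and epithelial surface proteins fell, 1 rose and 5 did not pass. Their median log2 fold change was -2.78, against -0.02 over all tested genes. To KO HPC, 24 of the 25 fell and 0 rose, with a median of -3.04. CLDN6, a claudin of tight junctions in pluripotent cells, fell from 911 and 680 TPM to 2.16 to 11.6 in the other libraries (log2 fold change to KO HE -7.49, limma adjusted p = 9.7e-06). MAL2, a transport protein of polarized epithelia, fell from 63.4 and 63.0 to 2 or less. The gene that rose was JUP, which encodes plakoglobin, a catenin used by cadherins of endothelium too, and it went from 74.9 and 73.9 to 241 and 234 in KO HE (log2 fold change 1.66, limma adjusted p = 0.00112). The keratins KRT8 and KRT18 had the smallest falls of the 19, and in HE KRT8 still had 176 to 240 TPM and KRT18 191 to 241. Of 10 tested epithelial regulators, 8 fell to KO HE and 7 to KO HPC and 0 rose in either. ESRP1, a splicing factor of epithelial isoforms, fell from 76.0 and 76.5 to 0.82 or less, and GRHL2 and OVOL2, transcription factors that maintain epithelia, fell from 12.2 and 10.7 and from 5.87 and 9.93 to 1.01 or less and 0.71 or less. The 5 genes of the miR-200 family, microRNAs that target ZEB1 and ZEB2, were listed at 0 in all 10 libraries, so the tables hold no value for them.

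The hexamer CAGGTG, which reads on the opposite strand as CACCTG, is the E-box that SNAI and ZEB factors are known to bind. RefSeq promoters of these genes were searched for it on both strands, from 250 bases before to 50 bases after each transcription start. Of all 35116 promoters in the RefSeq table (GRCh38.p14), 20.6% held it. In the epithelial junction and keratin list, 15 genes had 22 promoters in the table, of which 12 held it (54.5%). In the mesenchymal list 3 of 15 did (20%), and in the list of epithelial regulators 2 of 10 did (20%). Among receptors, linkers and filaments that go with FN1 and VIM, 5 of 16 did (31.25%). It was in 3 of 19 for corepressors and partners of SNAI and ZEB and in 2 of 15 for cadherin partners. For EMT signals and receptors it was in 6 of 31, and for other transcription factors in 0 of 18. The marker lists had 1 of 5 (pluripotent), 3 of 9 (endothelial), 1 of 6 (blood), 2 of 2 (erythroid) and 0 of 7 (stromal). Among the 10 genes themselves, ZEB1, ZEB2, VIM, FN1 and CDH2 had promoters in the table and the other 5 had none. A match was found at 2 of the 7 starts of ZEB1 and in none of the promoters of ZEB2, VIM, FN1 and CDH2. Printed here are the promoters with the most matches among the junction genes (CRB3 and, at 1 of its 2 starts, CLDN7, 5 matches each, a number that 33 of all promoters reach), that of the junction gene with the largest fall (CLDN6, 1 match), the ZEB1 start with the most matches (3) and that of ZEB2, the gene with the largest rise (0 matches). Each is written 5′ to 3′ on the strand of the gene, with matches in capitals, and none was tested for binding here.
CRB3 (chr19:6464021-6464320, plus strand): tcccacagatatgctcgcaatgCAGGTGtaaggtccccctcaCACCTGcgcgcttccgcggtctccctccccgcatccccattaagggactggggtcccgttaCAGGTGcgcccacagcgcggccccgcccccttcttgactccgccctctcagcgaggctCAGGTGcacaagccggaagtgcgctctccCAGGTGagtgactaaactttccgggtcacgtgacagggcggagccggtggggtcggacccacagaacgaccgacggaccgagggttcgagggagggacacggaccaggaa
CLDN7 (chr17:7262429-7262728, minus strand): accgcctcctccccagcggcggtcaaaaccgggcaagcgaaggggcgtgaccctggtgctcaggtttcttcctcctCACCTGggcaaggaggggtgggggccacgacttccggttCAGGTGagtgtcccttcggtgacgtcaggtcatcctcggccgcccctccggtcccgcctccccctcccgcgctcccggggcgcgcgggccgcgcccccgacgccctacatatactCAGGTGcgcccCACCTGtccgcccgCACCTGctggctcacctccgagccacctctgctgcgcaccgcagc
CLDN6 (chr16:3018134-3018433, minus strand): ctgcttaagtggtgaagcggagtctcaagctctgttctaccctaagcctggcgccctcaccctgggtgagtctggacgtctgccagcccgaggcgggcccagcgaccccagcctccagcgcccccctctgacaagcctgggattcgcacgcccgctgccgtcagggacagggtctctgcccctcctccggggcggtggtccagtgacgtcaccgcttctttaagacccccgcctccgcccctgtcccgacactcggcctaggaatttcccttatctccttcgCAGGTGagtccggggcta
ZEB1 (chr10:31318966-31319265, plus strand): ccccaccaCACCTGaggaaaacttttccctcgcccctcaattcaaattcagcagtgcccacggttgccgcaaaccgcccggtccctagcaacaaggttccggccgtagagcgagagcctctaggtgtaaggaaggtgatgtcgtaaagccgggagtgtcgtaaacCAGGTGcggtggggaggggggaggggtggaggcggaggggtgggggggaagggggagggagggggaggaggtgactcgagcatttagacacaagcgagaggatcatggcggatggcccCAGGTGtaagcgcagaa
ZEB2 (chr2:144520070-144520369, minus strand): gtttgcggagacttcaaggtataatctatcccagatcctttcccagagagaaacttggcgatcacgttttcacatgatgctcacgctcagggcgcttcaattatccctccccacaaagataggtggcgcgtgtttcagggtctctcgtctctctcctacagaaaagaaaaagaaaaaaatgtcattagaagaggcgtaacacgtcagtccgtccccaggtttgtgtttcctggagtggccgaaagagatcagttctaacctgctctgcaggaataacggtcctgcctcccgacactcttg
CRB3, which encodes a protein of the apical polarity complex, had a TPM of 17.9 and 18.7 in KO hESCs and was listed at 0 in all 8 HE and HPC libraries. CLDN7, a claudin with as many matches, had 81.7 and 83.6 in KO hESCs, 39.2 to 64.0 in HE and 8.13 to 12.3 in HPC, and its log2 fold change to KO HE was -0.43 (limma adjusted p = 0.197).

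Mesenchymal genes outside the 10 rose in part. Of 22 tested genes of collagen, contractile and matrix programmes, 12 rose to KO HE, 0 fell and 10 did not pass, and the median log2 fold change was 1.3. To KO HPC, 6 rose and 5 fell, with a median of 0.70. COL3A1, a fibrillar collagen, was listed at 0 in both hESC libraries and had 131 to 229 TPM in HE and 1.93 to 9.85 in HPC. S100A4, a calcium-binding protein of motile cells, had 41.7 and 44.2 in hESCs, 327 to 599 in HE and 483 to 760 in HPC, so it remained high where COL3A1 did not. TAGLN, a smooth muscle protein, moved the other way, from 656 and 212 to 24.7 to 64.6 in HPC (log2 fold change to KO HPC -3.19, limma adjusted p = 0.00244). All 12 stromal markers used to look for other cells belong to this list. Their summed TPM was 770 and 1275 in hESCs, 1085 to 1301 in HE and 168 to 341 in HPC. Of the 12, 5 rose to KO HE (COL3A1, LUM, COL1A2, ACTA2 and FBN1), 0 fell and 7 did not pass (median log2 change 0.93). In HE, COL1A2 had 159 to 265 TPM, LUM 4.65 to 22.9, PDGFRA 0.66 to 3.86 and DCN 0.42 to 1.34, and LUM, COL3A1 and DCN were listed at 0 in both hESC libraries. No source used here says how reads of the mouse OP9 cells were treated. The part of stromal cells, human or mouse, in the mesenchymal values of the co-cultured libraries, VIM and FN1 included, was not tested.

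Of 7 tested transcription factors beside the 5 above, 4 rose to KO HE and 1 fell. FOXC2 and FOXC1, forkhead factors of mesenchyme and vessels, rose from 0 in both hESC libraries to 11.5 and 10.7 TPM and from 0.10 and 0 to 5.18 and 8.51. MSX1, a homeobox gene, rose from 0.72 and 0.55 to 12.6 and 7.88. The gene that fell was SNAI3, the third SNAI paralog, from 5.43 and 11.05 to 1.77 and 2.34 (log2 fold change -1.53, limma adjusted p = 0.0266). To KO HPC, 2 of the 7 rose and 2 fell. A further list held 10 corepressors and other partners of SNAI and ZEB proteins, LATS2 included. To KO HE, RCOR1 (CoREST) rose, from 8.32 and 8.33 to 34.1 and 21.7, and 4 fell, CTBP2, AJUBA, KDM1A and HDAC2. The same counts, 1 and 4, held to KO HPC. Of 8 catenins and other cadherin partners, 2 rose and 3 fell to KO HE and 0 rose and 4 fell to KO HPC. The 2 that rose were CTNNB1 and JUP, and JUP is the same gene counted above among the junction genes. CTNNB1, which encodes beta-catenin, had 183 and 215 in hESCs and 321 and 395 in KO HE (log2 fold change 0.84, limma adjusted p = 0.0103).

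A list of 12 tested partners of FN1 and VIM held receptors, filaments and the linker genes PXN, FERMT2, TNS1 and PLEC. Of these 12, 6 rose to KO HE, 0 fell and 6 did not pass (median log2 fold change 0.98). To KO HPC, 4 rose and 2 fell (median 0.06). ITGA5, the alpha chain of the classical fibronectin receptor, rose from 15.0 and 12.3 TPM to 350.4 and 309 in KO HE (log2 fold change 4.50, limma adjusted p = 2.27e-05) and had 33.4 to 74.6 in HPC. Its partner ITGB1 rose from 265 and 226 to 650.4 and 554 and had 129 to 205 in HPC. ITGB3, known for the platelet integrin, was listed at 0 in hESCs and had 1.08 to 17.6 in HE and 161 to 218 in HPC. A second row with the symbol ITGB3 and values of at most 0.88 was left out. Of 12 tested signals and receptors of EMT, 3 rose and 2 fell in each of the comparisons with hESCs, with medians of 0.07 and 0.27. Of all tested genes, 13.9% rose and 16.1% fell to KO HE, and 14.2% rose and 16.4% fell to KO HPC. TGFB1, a ligand that induces SNAI and ZEB genes in many cells, rose from 7.58 and 4.91 to 359 and 231 in KO HE (log2 fold change 5.34, limma adjusted p = 2.75e-06), its receptor TGFBR2 from 4 and 5.11 to 48.9 and 41.9, and FGF2 fell from 35.8 and 31.5 to 0.57 and 1.17.

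From HE to HPC, the cells that leave the endothelial layer, the same genes could be compared in both genotypes with no library in common. Both tests took their spread from 1 fit of all 10 libraries, so they are not independent. In WT, 5 of the 10 genes fell and 0 rose, where 6.59% and 3.32% of all tested genes did. In KO, 4 fell and 1 rose, where 7.24% and 5.5% did. Of all genes called in KO, 1185 were higher and 1560 lower (43.2% higher), and with TPM rescaled without mitochondrial and globin genes 1628 were higher and 1330 lower (55% higher). SNAI1, ZEB1, VIM and FN1 fell in both. The fall of FN1 was the largest, by 4.19 on the log2 scale in WT (standard error 0.32, limma adjusted p = 0.000331) and by 3.19 in KO (standard error 0.32, limma adjusted p = 0.000525). VIM fell by 2.07 in WT (standard error 0.20, limma adjusted p = 0.000583) and by 2.07 in KO (standard error 0.20, limma adjusted p = 0.000446). SNAI1 fell by 1.31 in WT (limma adjusted p = 0.0107) and by 2.22 in KO (limma adjusted p = 0.000733), and ZEB1 by 2.12 (limma adjusted p = 0.0144) and 1.93 (limma adjusted p = 0.0181). CDH2 fell by 1.71 in WT (limma adjusted p = 0.0278), and its change in KO was -1.08 (95% interval -1.97 to -0.18, limma adjusted p = 0.118; 0.0293 with the replicate number as a block). ZEB2 was the one gene that rose, by 1.34 in KO (standard error 0.28, limma adjusted p = 0.0154), and its change in WT was 0.49 (95% interval -0.15 to 1.13, limma adjusted p = 0.368). For SNAI2 the changes were -1.42 in WT and -1.38 in KO, with limma adjusted p of 0.131 and 0.122, and for CDH1 and EPCAM, already low in HE, they were between -0.72 and 0.10.

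The calls between HE and HPC differed in how far they depended on single libraries. When only the 4 libraries of a comparison entered the fit, 0 of the 10 genes passed in either genotype. At an unadjusted p under 0.05, 5 did in each. The limma adjusted p was 0.0793 and 0.0576 for FN1 and 0.0863 and 0.0576 for VIM. In that fit, with 2 residual degrees of freedom per gene, 0 of all tested genes passed in either genotype. With the other groups in the fit, VIM and FN1 passed in both genotypes, and SNAI1 in KO, whichever library was left out. ZEB2 in KO did not pass without KO HE replicate 1, KO HE replicate 2 or KO HPC replicate 1 (limma adjusted p 0.0581, 0.106 and 0.077), nor with 0.1 added in place of 1 (limma adjusted p = 0.0813). CDH2 in WT did not pass without WT HE replicate 1, WT HE replicate 2 or WT HPC replicate 2 (limma adjusted p 0.159, 0.0971 and 0.153) nor without the filter on low genes (limma adjusted p = 0.0518). SNAI1 in WT did not pass without WT HE replicate 1 or 2 or WT HPC replicate 1 (limma adjusted p 0.0608, 0.0809 and 0.0513). ZEB1 did not pass in WT without either WT HE library or WT HPC replicate 2 (limma adjusted p 0.0837, 0.0937 and 0.0712) or in KO without either KO HE library or KO HPC replicate 1 (limma adjusted p 0.0831, 0.109 and 0.101).

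The HPC libraries differed in how much endothelial and erythroid RNA they held. In both genotypes replicate 2 had fewer endothelial transcripts than replicate 1, with a summed TPM of 548 against 763 in WT and 677 against 796 in KO. The erythroid sum was 13173 against 4763 in WT and 14238 against 6952 in KO. The genes SNAI2, ZEB2, CDH2 and VIM were lower in replicate 2 than in replicate 1 in both genotypes, FN1 was lower in WT (20.7 against 43.1) and level in KO (69.2 against 69.3), and ZEB1 was lower in WT (3.06 against 8.37) and higher in KO (7.87 against 4.39). The part of residual endothelium in these values was not tested. With the HPC libraries numbered 1 alone, 4 genes passed in WT and 5 in KO, and with those numbered 2 alone 5 passed in each. These fits hold 1 HPC library a genotype, which is assumed to vary like the libraries of the other groups, and they leave out the spread between HPC replicates. CDH2 in WT passed with neither (limma adjusted p 0.161 and 0.0574), and with those numbered 2 the rise of ZEB2 in KO no longer passed (0.94, limma adjusted p = 0.0554), so the count of 5 was made up by SNAI2, for which the HPC replicates differed by -1.29 and which did not pass with both.

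Some of the related genes fell from HE to HPC as well. Of the 22 mesenchymal genes, 9 fell and 1 rose in WT, with a median of -1.42, and 9 fell and 0 rose in KO, with a median of -1.33. COL3A1 and COL5A2 fell most, by 5.18 and 4.88 in WT (limma adjusted p 0.000658 and 0.000441), and the gene that rose in WT was POSTN, from 2.10 and 0.72 TPM to 12.2 and 7.07. Of the 12 fibronectin and filament partners, 8 fell and 1 rose in WT and 7 fell and 1 rose in KO, with medians of -1.54 and -1.47. ITGB3 was the one that rose in both, and ITGA5 fell by 2.70 in WT (limma adjusted p = 0.00128) and by 2.85 in KO (limma adjusted p = 0.000848). Of the 7 other transcription factors, FOXC2, FOXC1 and PRRX2 fell in both genotypes and 0 rose. Of the 8 cadherin partners, 2 fell and 0 rose in WT and 3 fell and 1 rose in KO, with CTNNA1, which encodes alpha-catenin, and CTNNB1 among those that fell in both. JUP, which fell in KO, is counted both here and among the junction genes. Of the 25 junction and keratin genes, 7 fell and 2 rose in WT and 9 fell and 1 rose in KO, where CLDN7, DSP, DSG2, TJP1, KRT8, KRT18 and KRT19 fell in both and SPINT2, a protease inhibitor, rose in both. None of the 10 tested epithelial regulators passed in limma in either genotype (0 also at an unadjusted p under 0.05). At that unadjusted threshold, 4834 of all tested genes passed in WT and 5770 in KO. The 12 listed regulators summed to 10.7 to 24.95 TPM in HE and 10.9 to 14.75 in HPC. In each of these libraries 4 to 7 of the 12 were at 0, so a further fall could hardly have shown. Of the 10 corepressors and partners of SNAI and ZEB, 0 passed in WT and 1, AJUBA, fell in KO. Of the 12 signals and receptors, 1 rose and 3 fell in WT and 1 rose and 2 fell in KO. TGFBR3 and TGFBR2 fell in both, WNT5A rose in both, and TGFB1, which did not pass, had 378 and 496 TPM in WT HPC and 308 and 323 in KO HPC.

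The genotypes were compared within each stage, to ask whether cells without intact GATA2 differ in these genes before and after the transition. None of the 10 genes passed in HE (0 in limma, and 0 at an unadjusted p under 0.05) and none in HPC (0 in limma, and 1 at an unadjusted p under 0.05). Of all tested genes 0.0186% passed in HE and 0.0603% in HPC, and 4.85% and 8.94% had an unadjusted p under 0.05. The same test called 0% of all genes for the difference of the genotype effect between HPC and HE, with 5.95% at an unadjusted p under 0.05, and 0 of the 10 genes passed it, with 1 at an unadjusted p under 0.05. The narrowest interval was that of VIM, whose log2 fold change from WT to KO was 0.24 in HE (95% interval -0.21 to 0.68) and 0.24 in HPC (95% interval -0.21 to 0.68). The widest was that of TWIST1, at -0.15 in HE (95% interval -1.66 to 1.36) and -0.41 in HPC (95% interval -1.91 to 1.10). For SNAI2, ZEB1 and CDH2 in HE the differences were -0.01, -0.03 and 0.01 with intervals of -1.17 to 1.15, -0.98 to 0.93 and -0.88 to 0.91, so each interval holds changes of up to 0.88 in either direction.

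**Figure D3:**
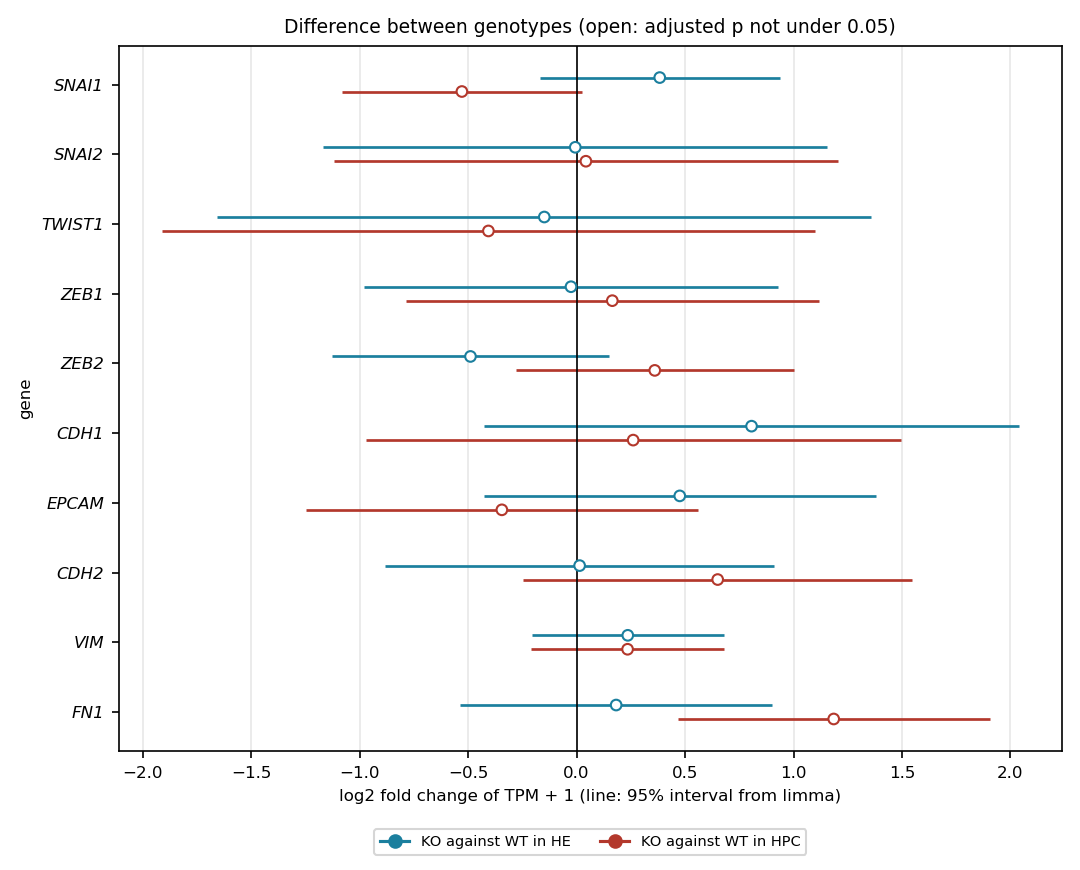
Log2 fold change of TPM + 1 from WT to KO for each gene in HE and in HPC, with the 95% interval from limma as a line; no point passed an adjusted p of 0.05. The interval of FN1 in HPC, 0.47 to 1.90, is the one that does not cross 0, and the points of SNAI1 lie on opposite sides of 0, at 0.38 in HE and -0.53 in HPC.

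The libraries of the genotypes did not overlap for 4 of the 10 genes in HE and for 3 in HPC, against 30.3% and 32.6% of all tested genes. In HE these were SNAI1, EPCAM and VIM, higher in KO, and ZEB2, lower in KO, with log2 fold changes of 0.38, 0.48, 0.24 and -0.49. In HPC they were FN1, higher in KO, and SNAI1 and TWIST1, lower in KO. The gene with the smallest p in HPC was FN1, at 43.1 and 20.7 TPM in WT and 69.3 and 69.2 in KO, and its log2 fold change was 1.19 (standard error 0.32, limma adjusted p = 0.296). Between the libraries numbered 1 its difference was 0.67 and between those numbered 2 it was 1.70. The mitochondrial share of TPM was 8.66% and 9.61% in WT HPC and 15.1% and 14.8% in KO HPC. With TPM rescaled without mitochondrial and globin genes, 6 genes were called higher and 7 lower in KO HPC, the same counts as without rescaling. The median log2 fold change of all tested genes was then 0.14 in place of 0.05. Any other part of this share in the differences between these groups was not tested. SNAI1 was the 1 gene of the 10 with KO libraries above WT in HE and below WT in HPC, a pattern that 4.17% of all tested genes show in one or the other order.

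No gene of the other lists passed between genotypes. In the 8 lists of epithelial, mesenchymal, adhesion and signalling genes, 0 genes passed in limma in HE, in HPC or for the difference between the stages, and at most 2 genes of a list had an unadjusted p under 0.05. For some epithelial genes this outcome was fixed. CRB3, at 0 in all HE and HPC libraries, entered the tests through hESCs alone and could not differ between genotypes. In each HE and HPC library, 2 to 5 of 26 listed junction genes and 4 to 7 of 12 listed epithelial regulators were at 0. The medians of the epithelial junction list were -0.03 in HE and -0.13 in HPC and those of the mesenchymal list -0.26 and -0.09, against -0.01 and 0.05 over all tested genes. Of the marker lists, the erythroid and blood genes stood lower in KO HE. The erythroid sum of TPM was 72.6 and 118 in WT against 23.4 and 25.5 in KO, with a median log2 fold change of -1.86. Of these 8 genes 0 passed in limma and 6 had an unadjusted p under 0.05. The blood sum was 121 and 174 in WT against 39.9 and 86.7 in KO, with a median of -0.61. Of these 8 genes 0 passed in limma and 3, SPI1, MYB and RUNX1, had an unadjusted p under 0.05. The endothelial sum was 2746 and 2784 in WT and 2930 and 3235 in KO.

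Finally, the genes with the most similar pattern over the 10 libraries were listed for each of the 10, by Pearson's r of log2(TPM + 1) among tested genes that ranged over at least 2 on that scale. These values describe how levels move over 5 groups of 2 libraries and are dominated by the steps between stages. CDH1 was closest to ZNF204P (r = 0.994), PRSS22 (r = 0.994) and MARVELD3 (r = 0.993), and EPCAM to DHRS3 (r = 0.992), CNTN1 (r = 0.988) and PNMA2 (r = 0.988). SNAI1 was closest to CORO6 (r = 0.986), SNAI2 to DOK4 (r = 0.989), ZEB1 to HOXB6 (r = 0.989) and ZEB2 to TET2 (r = 0.997), KLHL6 (r = 0.994) and MEIS1 (r = 0.994). VIM was closest to SOST (r = 0.997) and HAPLN1 (r = 0.996), FN1 to TMEM255B (r = 0.994) and GALNT18 (r = 0.991), and CDH2 to TNFRSF21 (r = 0.985). TWIST1, at the floor in most libraries, reached no more than 0.895.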

How the data were processed

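RNA was sequenced from hESCs, HE and HPC sorted by FACS after magnetic enrichment for CD34, with TRA-1-85 to mark human cells. The authors prepared TruSeq libraries, sequenced short single-end reads on a MiSeq system, trimmed them with Trimmomatic, mapped them with Bowtie to hg19 and deposited TPM per Ensembl gene. The submitters' processing notes name Bowtie, RSEM, hg19 and mm10 without roles. Short reads can leave paralogs and overlapping genes uncertain. The study's Cuffdiff test needs alignments and was not repeated.

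From the deposited TPM of the 10 libraries, log2(TPM + 1) was tested in limma 3.58.1 (R 4.3.3; lmFit, contrasts.fit, eBayes with trend), with 5 groups in 1 fit, over the 21543 genes that reached a TPM of 1 in 2 or more libraries. A Benjamini-Hochberg adjusted p under 0.05 was the threshold, and intervals are at 95%. The procedure was tested on simulated data. Tables, motif counts and figures used Python 3.11.15, numpy 2.4.6, pandas 2.3.3 and matplotlib 3.10.9. Positions are from GENCODE v44 lifted to GRCh37, and promoters from RefSeq on GRCh38.p14, a different build, used only for sequence.

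All 10 genes are named with every value. Of each further list, up to 4 genes with the largest change past the threshold were to be named, and others given were chosen after their values were seen. The genes and lists were chosen with earlier results of these data known. Alternatives were a pseudocount of 0.1, no filter, only the libraries of a contrast, quantile normalization, TPM rescaled without mitochondrial and globin genes, eBayes without trend, a replicate block, each replicate left out and, chosen after seeing the data, HPC libraries of 1 number only.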

Additional observations from a re-analysis of the deposited data

Results flagged for a closer look

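SNAI1 was singled out because its libraries moved in opposite directions between genotypes in the 2 stages. Its TPM was 24.1 and 25.6 in WT HE against 35.3 and 30.4 in KO HE, and 8.85 and 10.01 in WT HPC against 5.28 and 7.30 in KO HPC. The log2 fold change from WT to KO was 0.38 in HE (95% interval -0.17 to 0.94) and -0.53 in HPC (95% interval -1.08 to 0.02). The difference of these effects was -0.91 (95% interval -1.69 to -0.13, limma adjusted p = 0.759), so it did not pass over all tested genes although its unadjusted p was under 0.05. Same-numbered libraries gave 0.53 and 0.24 in HE and -0.65 and -0.41 in HPC, signs that were fixed by the choice of this gene. The interval and the unadjusted p come from the same values that singled it out. Of all tested genes, 4.17% show such a pattern in either order. Groups of 2 libraries are too small for a test of single libraries that stand apart.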

How the results depend on the processing

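All 25 calls on the 10 genes kept their sign in each alternative run, and 13 kept their side of the threshold in all of them. Those 13 include the 8 from KO hESCs to KO HE. Over the 910 values of single genes under an alternative, 54 of genes that did not pass had the other sign, 16 of them by more than 1 standard error, among them TWIST1, ZEB1, SNAI2 and EPCAM between genotypes. With only the libraries of a contrast, 4386 genes passed from KO hESCs to KO HPC in place of 6586, and 0 genes passed between HE and HPC or between genotypes in limma in place of 2134 (WT), 2745 (KO), 4 (HE) and 13 (HPC), as did 0 of the 10 genes in place of 5 in each genotype. At an unadjusted p under 0.05 these counts of genes were 4423, 5040, 1467 and 1613. This fit has 2 residual degrees of freedom per gene. Between genotypes, the count in HE was 13 without the filter on low genes and 12 without the trend, and in HPC it was 6 with a pseudocount of 0.1 and 20 without the trend. With HPC libraries numbered 1 alone, 908, 1514 and 21 genes passed between WT HE and HPC, KO HE and HPC, and the HPC genotypes, and with those numbered 2 alone 2 passed in the last. The cause of these moves was not tested.

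With each replicate left out in turn, the count of genes passing was 4075 to 4431 for KO HE against KO hESCs, 4180 to 5053 for KO HPC against KO hESCs, 849 to 1505 for WT HPC against WT HE, 1257 to 1826 for KO HPC against KO HE, 0 to 0 between genotypes in HE, 0 to 9 in HPC and 0 to 5 for the difference between stages. Of the 10 genes, 2 to 4 then passed between WT HE and HPC and 3 to 5 between KO HE and HPC. TPM rescaled without mitochondrial and globin genes moved the median of all genes by 0.12 between KO HE and KO HPC.

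The groups share replicate numbers, and replicate 2 of each HE and HPC group shares a header tag, whose meaning is not given in the sources used here. The numbers were not taken to pair the libraries, since only 1 pair of groups had a correlation over 0.1. The correlation of the deviations of same-numbered libraries was 0.123 between the HE groups and 0.0551 between the HPC groups, and at most 0.0317 across stages. The groups of the same stage thus had the highest values. Such a correlation over all tested genes can miss a shift shared by some of them, and a shared batch was not tested. With the replicate number as a block, 2 genes passed between genotypes in HE and 3 in HPC, and of the 10 genes CDH2 passed from KO hESCs to KO HE (limma adjusted p = 0.0327) and from KO HE to KO HPC (limma adjusted p = 0.0293), so that 9 and 6 genes passed there. It changed no other call on the 10 genes.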
